A study of Mus musculus with 6 samples.

Results

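A set of 9 genes of the step from G1 into S phase were followed: the D-type cyclin genes Ccnd1, Ccnd2 and Ccnd3, the cyclin genes Ccne1, Ccne2 and Ccna2, and the kinase genes Cdk2, Cdk4 and Cdk6. They were chosen by symbol, as every probe set whose only gene symbol in the platform annotation was one of these 9. That gave 26 of 34945 probe sets with 1 symbol, for 9 of 18193 genes. The samples were leukaemia cells of T-cell acute lymphoblastic leukaemia (T-ALL) in C57BL/6 mice 12 weeks of age, of the genotype Notch1[delta]E mycGFP. Notch1[delta]E is an activated form of the NOTCH1 receptor, and the GFP was used to sort cells by MYC. CD25+ splenocytes were taken 4 weeks after transplant into congenic recipients and sorted on mCherry and GFP. Cells without and with GFP make up the MycGFP negative and the MycGFP positive group, each with 3 Affymetrix arrays. All 6 samples share this genotype label, and the groups are set apart by the GFP gate. The design names 3 independent leukaemias. The labels do not say which array came from which, how many animals each array holds, or what drives Notch1[delta]E.

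The D cyclins bind CDK4 and CDK6, and these complexes begin the phosphorylation of the retinoblastoma protein that holds E2F transcription factors in check. E2F then drives the genes for cyclin E and cyclin A, which pair with CDK2 to start and carry through DNA replication. The D cyclins answer to growth signals, and cyclin D3 with CDK6 is known for its part in thymocyte and T-ALL proliferation. CDK4 is widely described as a MYC target, with E-boxes, the sites that MYC and MAX bind, in its promoter. Transcripts of cyclin E and cyclin A rise and fall within the cell cycle. In sorted bulk samples, more cells of a type or phase and more RNA per cell cannot be told apart.

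All 3 defining genes of the T cell receptor complex, Cd3d, Cd3e and Cd3g, were bright on all 6 arrays, as was Il2ra, which encodes CD25. Cd247, another chain of that complex, was 2.23-fold lower in MycGFP positive cells with no overlap (limma, adjusted p = 0.0625). In a fit of all named probe sets, the dimmer ones of Cd247 were 2.82-fold, 2.29-fold and 1.24-fold lower (limma, adjusted p = 0.0272, 0.0573 and 0.795). A dimmer one of Ptprc, also a T cell marker, was 3.36-fold lower (0.0465), and its brightest 1.17-fold lower (0.563). By brightest probe set, 3 of the 8 T cell markers had all positive arrays below the negative ones, against 11.2% of all genes. Intensity is the deposited brightness of a probe set on a linear scale, and its median over all probe sets was 30.5 to 32.7 per array. A value near that median may be background. Of the B cell markers 2 of 6, of the myeloid markers 2 of 8, of the erythroid markers 1 of 4, of the NK cell markers 2 of 4, of the stromal and endothelial markers 4 of 6 and of the platelet markers 1 of 4 lay under it on every array. Others were above it. Gzma, on the NK cell list, read 4447 to 7836 over the 6 arrays, with all positive arrays above the negative ones. On the B cell list Cd79b read 44.0 to 645. Ms4a1, a B cell marker, read 117 and 172 on the arrays numbered 1 and 9.43 to 20.6 on the others. The summed myeloid markers ranged from 257.8 to 10430 on negative and from 179.2 to 2662 on positive arrays, highest on the arrays numbered 2. The part of these cell types in the results was not tested. The sort on GFP favours a difference in Myc, so Myc serves as a check of the sort. Myc rose 2.58-fold in MycGFP positive cells (limma, adjusted p = 0.0329), with no overlap between the groups. That call was lost when negative array 2 (0.0952) or any 1 of the positive arrays (0.0913, 0.108 and 0.0786) was left out.

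The promoters of the 3 kinase genes are shown because Cdk4 gave the clearest difference of the 9 genes and the cells were sorted by MYC. Each is the 250 bases before the gene start from RefSeq, build GRCm38.p6, on the strand of the gene. Capitals mark the E-box CACGTG and matches to the E2F words TTTCCCGC, TTTCGCGC, TTTGCCGC or TTTGGCGC, searched on both strands.
Cdk4, chr10:127063285-127063534, plus strand: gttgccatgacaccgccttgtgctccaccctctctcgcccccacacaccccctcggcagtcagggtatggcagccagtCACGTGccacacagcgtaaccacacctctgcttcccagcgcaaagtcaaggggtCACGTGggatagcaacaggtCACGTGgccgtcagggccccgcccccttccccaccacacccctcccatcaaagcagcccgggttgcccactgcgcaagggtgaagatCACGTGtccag
Cdk6, chr5:3343643-3343892, plus strand: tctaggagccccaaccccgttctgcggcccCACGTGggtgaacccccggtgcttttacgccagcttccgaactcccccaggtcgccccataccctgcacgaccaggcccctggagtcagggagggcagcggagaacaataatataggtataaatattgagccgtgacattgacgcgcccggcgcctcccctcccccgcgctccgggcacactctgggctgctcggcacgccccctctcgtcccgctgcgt
Cdk2, chr10:128705052-128705301, minus strand: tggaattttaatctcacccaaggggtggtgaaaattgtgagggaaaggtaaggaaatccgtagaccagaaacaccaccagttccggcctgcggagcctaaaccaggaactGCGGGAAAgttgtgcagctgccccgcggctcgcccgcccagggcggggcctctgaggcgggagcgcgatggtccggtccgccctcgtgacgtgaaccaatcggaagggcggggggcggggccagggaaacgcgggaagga

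The Cdk4 window held 4 CACGTG matches, starting 172, 118, 98 and 11 bases before the gene start. Of 32851 promoter windows of this length, 6.02% held at least 1 such match and 7 windows, or 0.0213%, held at least 4. Cdk6 held 1, 220 bases before its start, and Cdk2 none. The Cdk2 window held 1 E2F word, as GCGGGAAA, 140 bases before the start, against 1.86% of all windows with at least 1. RefSeq windows were also matched for Ccne1 (1 window) and Ccnd3 (2 windows), and neither the E-box nor the E2F words were in them. A match is a run of letters and not a measured site. As a description over genes, 4.56% of the 13190 tested genes with no CACGTG in a window were called higher in MycGFP positive cells. The share was 7.3% of 1150 genes with 1 match and 6.25% of 112 genes with 2 or more. Of the 4 tested genes with 4 or more, Cdk4, Lamp1, Mfsd1 and Nxf2, only Cdk4 was called higher. Cdk4 was shown because of its difference, so its call is no test of the matches.

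The comparison asks how the transcripts of these genes differ between MycGFP positive and negative leukaemia cells. Cdk4 and Ccne1 rose in MycGFP positive cells, 2.30-fold and 3.27-fold, and no gene of the 9 fell (limma, Benjamini-Hochberg over 18193 genes, threshold 0.05, brightest probe set per gene). Over all genes, 4.62% (840) were called higher and 1.51% (275) lower, and 502 higher and 381 lower after median centring. Before adjustment, at p under 0.05, 4 of the 9 genes were higher (14.7% of all genes) and 1 was lower (7.35%). The 3 positive arrays lay above the 3 negative ones for 4 of the 9 genes (17% of all genes) and below them for none (11.2%). The median log2 difference, MycGFP positive minus negative, was 0.99 over the 9 genes and 0.013 over all genes. Over single probe sets it was lower, 0.21 for the 26 of these genes and 0.00944 for all named ones. The 0.99 is the value of Cdk2, which was not called. With the array number as a block, 3 of 9 were called higher, Ccna2 being added, and none lower, where 5.75% of all genes were called higher and 1.95% lower. Over single probe sets, 5 of 26 were called higher and none lower, against 4.76% and 2.16% of all 34945. Those 5 were all 3 of Cdk4 and both of Ccne1. Without positive array 2, limma called no gene of the 18193 in either direction, while 2209 higher and 976 lower genes had p under 0.05 before adjustment.

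**Figure D1:**
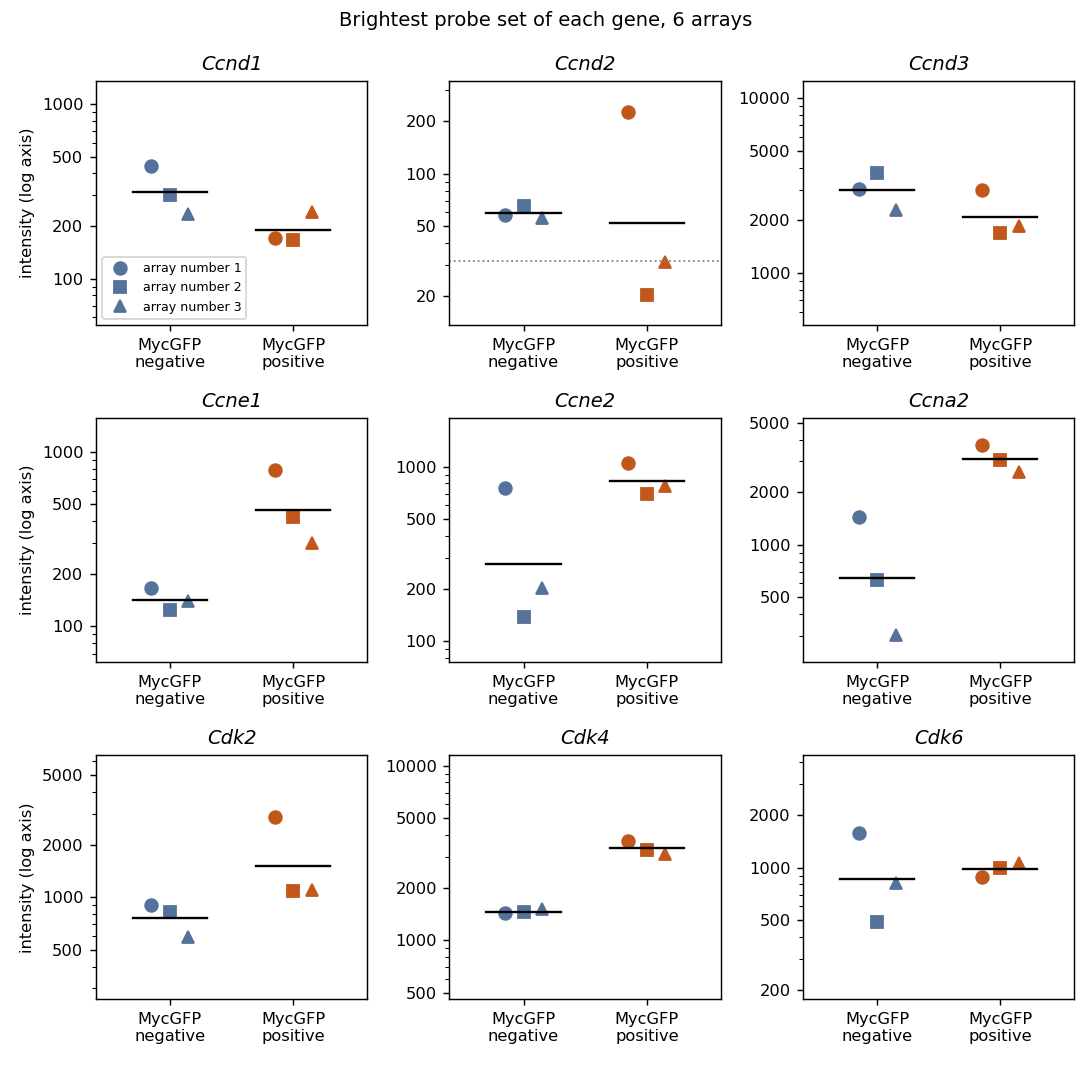
Intensity of the brightest probe set of each gene on the 6 arrays (log axis, the same 25-fold span in every panel); marker shapes give the array number, bars the geometric mean of a group, and the dotted line the median over all probe sets. Cdk4 shows little spread within a group and no overlap, while Ccne2, Cdk2 and Ccnd2 each have 1 array far from the others of its group.

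Cdk4, the kinase partner of the D cyclins, gave intensities of 1423, 1447 and 1501 on negative arrays 1, 2 and 3 and of 3685, 3268.5 and 3122 on positive arrays 1, 2 and 3. Every positive array lay above every negative one, and the spread within each group was small beside the gap. The group means were 1457 ± 39.9 and 3358 ± 292 (SD, n = 3). On the log2 scale the difference was 1.20 (SE 0.12, 95% confidence interval 0.90 to 1.51; limma, adjusted p = 0.012).
The other 2 Cdk4 probe sets were called as well, at 2.28-fold and 2.59-fold higher (adjusted p = 0.0122 and 0.0115 over all named probe sets). The brightest is marked by its name as sharing probes with other transcripts, and the 2.59-fold one is not. Within array numbers 1, 2 and 3 the positive array was 2.59-fold, 2.26-fold and 2.08-fold higher. The call held in 13 of 15 alternatives, counting the block, and the log2 difference stayed between 1.05 and 1.26. It was lost without positive array 2 (adjusted p = 0.0621, log2 difference 1.22) and without both arrays numbered 1 (0.056, 1.12).

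Ccne1 encodes cyclin E1, which activates CDK2 at the end of G1. Its brightest probe set read 165, 124 and 139 on the negative and 785, 421 and 302 on the positive arrays. The groups did not overlap, and the positive arrays spread more than the negative ones, with array 1 the highest. The name of this probe set marks it as sharing probes with other transcripts. The log2 difference of 1.71 (SE 0.36, 95% interval 0.84 to 2.58) was called (limma, adjusted p = 0.0479). The other probe set, not so marked, at 136, 68.0 and 56.5 against 694, 354 and 266, gave a 4.99-fold rise (adjusted p = 0.0407 over all named probe sets). This call lay close to the threshold. It was lost without any single array, at adjusted p of 0.0655 to 0.139, under median centring (0.0676) and in 4 further settings, with a log2 difference of at least 1.33 in each.

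Ccne2, the gene of cyclin E2, had 1 probe set, with 749.9, 137 and 202 on the negative and 1044, 697 and 774 on the positive arrays. Negative array 1 lay within the range of the positive arrays, and the other negative arrays were far below it. The log2 difference of 1.59 (SE 0.62, 95% interval 0.07 to 3.10) was not called (limma, adjusted p = 0.207). Without negative array 1 it was 2.31 and called (adjusted p = 0.0193). Within numbers 2 and 3 the positive array was 5.08-fold and 3.82-fold higher, and within number 1 it was 1.39-fold higher.

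Ccna2 encodes cyclin A2, the CDK2 partner of S phase. It read 1431, 627 and 303 on the negative and 3705, 3034 and 2591 on the positive arrays. The groups did not overlap, and the negative arrays differed 4.72-fold between the highest, array 1, and the lowest, array 3. The log2 difference of 2.25, a 4.75-fold higher level, was the largest of the 9 here, with an SE of 0.55 and a 95% interval of 0.92 to 3.57. It was not called over all genes (limma, adjusted p = 0.0694) and was called with the array number as a block (adjusted p = 0.0416). The second probe set behaved alike, at 5.07-fold higher (adjusted p = 0.095, and 0.0282 under the block, over all named probe sets). Without negative array 1 the brightest probe set gave a log2 difference of 2.82 (adjusted p = 0.0212).

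Genes that E2F drives at the G1/S transition were higher too. Of 19 measured on a list of them, 13 were called higher and none lower (limma), where 4.62% and 1.51% of all genes were. Before adjustment 17 had p under 0.05, all higher, against 14.7% of all genes. Their median log2 difference was 2.21, beside 0.013 over all genes. As the median deviation from each gene's own mean over the arrays, in log2 units, negative arrays 1, 2 and 3 stood at -0.25, -1.27 and -1.53, and positive arrays 1, 2 and 3 at 1.25, 0.98 and 0.98. That count fell to 2 without negative array 2, to 1 without positive array 1 or 3 and to 0 without positive array 2, and it was 18 without negative array 1. Negative array 1 was the highest of its group for this list as for Ccne1, Ccne2 and Ccna2. The part of this in the cyclin differences was not tested.

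Cdk2, the kinase that cyclin E and cyclin A activate, read 899, 824 and 589 on the negative and 2857, 1087 and 1095 on the positive arrays. All positive arrays lay above all negative ones, but positive array 1 was far above the other positive arrays. The log2 difference of 0.99 (SE 0.42, 95% interval -0.02 to 2.0004) was not called (limma, adjusted p = 0.237). Without positive array 1 it was 0.52. The other Cdk2 probe set lay under the array median on all 6 arrays, at 3.39 to 5.82.

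Cdk6, the other partner of the D cyclins, read 1579, 489 and 815 on the negative and 889, 996 and 1063.5 on the positive arrays. The positive arrays lay close together inside the range of the negative ones. The log2 difference was 0.19 with a 95% interval of -0.81 to 1.20 (limma, adjusted p = 0.853). The Cdk4 log2 difference of 1.2017 lies just above the upper limit of that interval, 1.1996, which is no test of Cdk4 against Cdk6. The 3 probe sets of Cdk6 differed. One read 128, 205 and 207 against 684, 228 and 367, with groups that did not overlap and a mean shift of 1.13 on the log2 scale (limma, adjusted p = 0.183 in the probe set fit). Another had its highest negative value on array 3 (712), where the brightest probe set had its own on array 1.

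**Figure D2:**
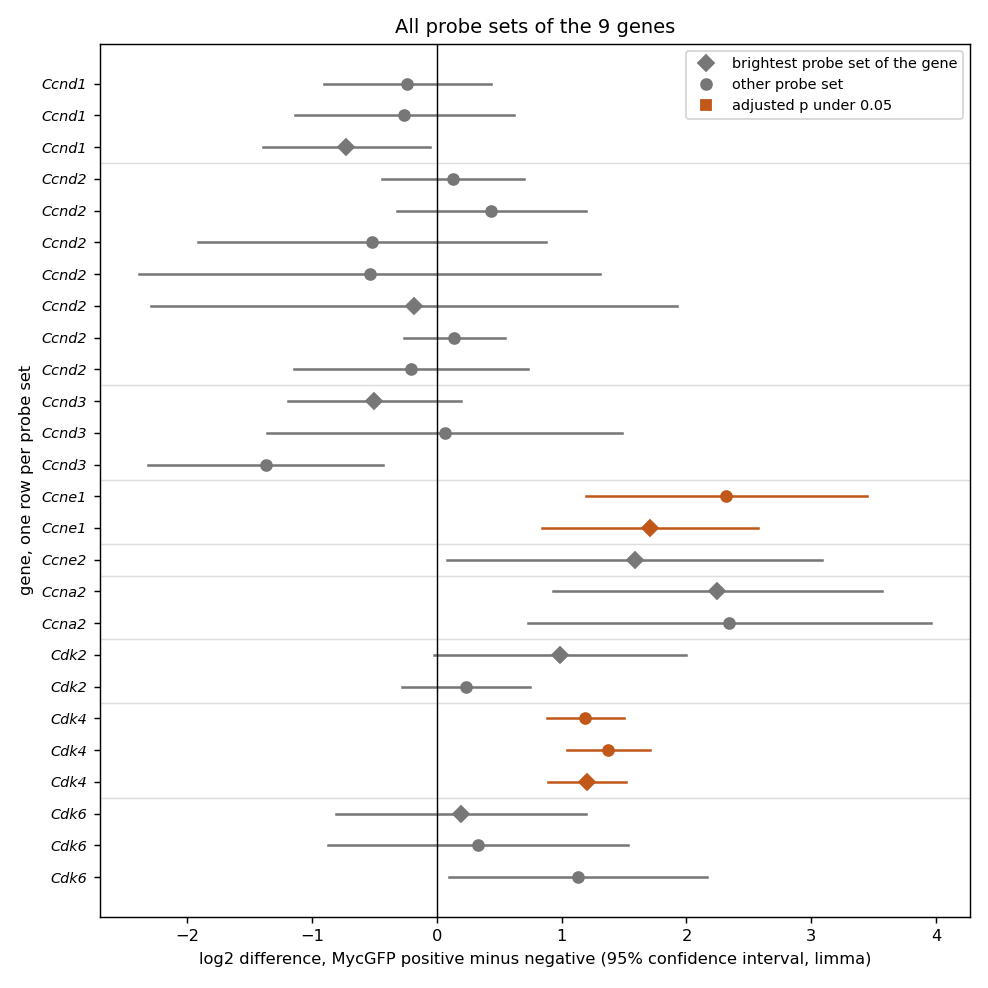
Log2 difference, MycGFP positive minus negative, of each of the 26 probe sets with its 95% confidence interval from limma; diamonds are the brightest probe set of a gene and orange marks an adjusted p under 0.05 over all named probe sets. The 3 Cdk4 probe sets have narrow intervals between 0.88 and 1.71. None of the 13 probe sets of the D cyclins is called, where 4.76% of all probe sets are called higher and 2.16% lower.

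None of the 13 probe sets of the D cyclin genes was called in either direction (limma, adjusted over all named probe sets). Of all probe sets 4.76% were called higher and 2.16% lower, so few calls among 13 would be looked for at those shares. Before adjustment, at p under 0.05, 2 were lower and none higher, where 8.49% and 14.1% of all probe sets were. The groups overlapped on 12 of the 13, and on the other the positive arrays lay below, as on 12% of all probe sets, while 16.6% had them above.

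Ccnd3, the gene of cyclin D3, read 3044, 3747.5 and 2302 on the negative and 2979.8, 1685 and 1849.9 on the positive arrays. Positive array 1 lay within the negative range and the other positive arrays below it. The log2 difference was -0.50 with a 95% interval of -1.19 to 0.19 (limma, adjusted p = 0.386). Its 3 probe sets disagreed. One read 189, 148 and 86.0 on the negative and 72.5, 56.0 and 34.1 on the positive arrays, with no overlap. It was 2.59-fold lower and not called in the probe set fit (limma, adjusted p = 0.0939), where the array number as a block gave a call (0.0268). The remaining probe set read 151, 223 and 204 against 75.4, 322 and 324, with a log2 difference of 0.06 and positive array 1 apart from the rest.

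Ccnd1 encodes cyclin D1, which many solid tumours express. It read 439, 299 and 236 on the negative and 169.9, 167 and 242 on the positive arrays. Positive array 3 lay just above the lowest negative array, so the groups overlapped. The log2 difference of -0.72 (SE 0.28, 95% interval -1.39 to -0.05) was not called (limma, adjusted p = 0.194), and the sign was negative on all 3 of its probe sets, of which 1 lay under the array median on every array.

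Ccnd2, the gene of cyclin D2, had 7 probe sets, of which 2 lay under the array median on all 6 arrays and 1 above it on all 6. The brightest read 57.8, 64.9 and 55.5 on the negative and 227, 20.3 and 31.0 on the positive arrays. Positive array 1 was the highest of the 6 and the other positive arrays lay under their array medians. The log2 difference of -0.18 had a 95% interval of -2.31 to 1.94 (limma, adjusted p = 0.943) and changed sign without positive array 2 or 3. Positive array 1 was the highest of its group on 6 of the 7 probe sets and negative array 1 on 5 of 7. Of the 7, 3 had a higher and 4 a lower mean in MycGFP positive cells.

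**Figure D3:**
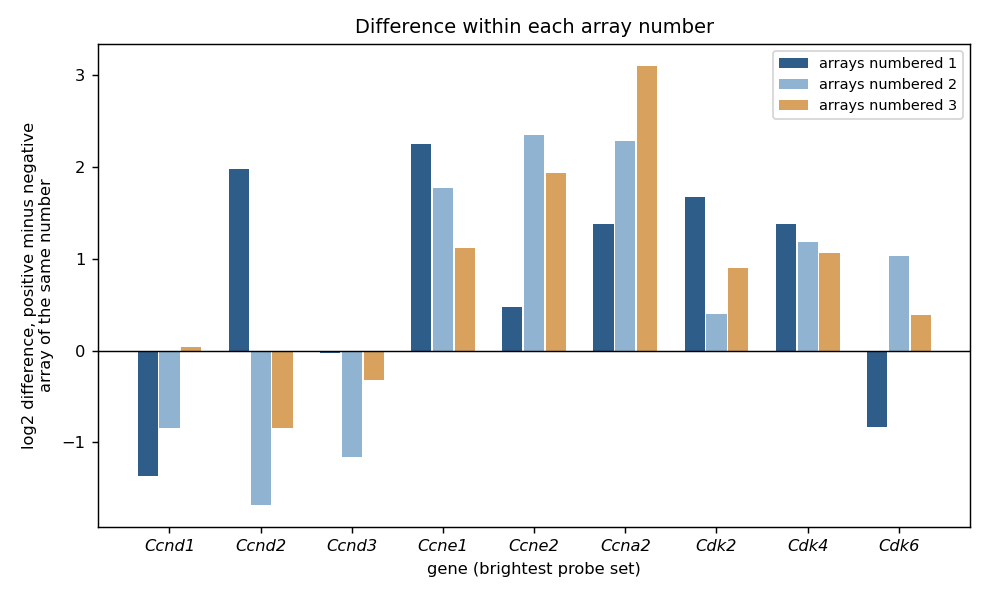
Log2 difference between the MycGFP positive and the MycGFP negative array of the same number, for the brightest probe set of each gene (3 bars per gene, one for each number). All 3 bars are above 0 for Ccne1, Ccne2, Ccna2, Cdk2 and Cdk4, all 3 are below 0 for Ccnd3, by 0.03 to 1.15, and Ccnd1, Ccnd2 and Cdk6 have bars on both sides of 0.

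Positive array 1 was the highest positive array for 7 of the 9 genes and negative array 1 the highest negative array for 6 of 9. With both arrays numbered 1 left out, a setting chosen after seeing these values, Ccne2 was the only one of the 9 called (log2 difference 2.14, limma, adjusted p = 0.0488). Differences between genes of the same role were set side by side per array in 9 pairs. Cdk4 exceeded Cdk6 by 1.01 in its log2 difference, with overlapping groups (exact permutation test, two-sided, p = 0.2, adjusted p = 1 over 9 pairs). With 3 against 3 arrays the smallest p this test can give is 0.1, and the groups overlapped in all 9 pairs.

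Around these 9 genes the other parts of the G1/S pathway were read from the same fit. Of 13 pocket protein and E2F genes, 2 were called higher and none lower, against 4.62% and 1.51% of all genes. Before adjustment 5 were higher and 1 lower with p under 0.05 (14.7% and 7.35% of all genes), with a median log2 difference of 0.65. E2f1, an activator of S phase genes, went from 125 ± 46.9 to 628 ± 122 (SD, n = 3), 5.16-fold higher (limma, adjusted p = 0.0162). Its other probe sets, at 2.35-fold and 1.21-fold higher, were not called (adjusted p = 0.0731 and 0.487 in the probe set fit). E2f6, a repressor of the family, went from 57.6 ± 7.36 to 281 ± 57.8 (SD, n = 3), 4.84-fold higher (limma, adjusted p = 0.0103).

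Of 14 genes of cyclin turnover, 2 were called higher and none lower, where 4.62% and 1.51% of all genes were. Before adjustment 7 were higher and 2 lower with p under 0.05 (14.7% and 7.35% of all genes). The median log2 difference was 0.56. Skp2, the ubiquitin ligase subunit that targets the CDK inhibitor p27, went from 322 ± 85.4 to 1481 ± 116 (SD, n = 3), 4.69-fold higher (limma, adjusted p = 0.0103). Cul1, the scaffold of that ligase, rose 1.84-fold (adjusted p = 0.0451, and 0.0709 under the block). With the array number as a block 4 of the 14 were called higher and 1, Fbxw7, lower, against 5.75% and 1.95% of all genes. Fbxw7 encodes the subunit that targets cyclin E for destruction and is named here after its values were seen. It read 3300.5, 4714.5 and 5193 on the negative and 1454, 2160 and 3011 on the positive arrays, with no overlap. It was 2.04-fold lower (limma, adjusted p = 0.117, and 0.0369 under the block), and its other probe set, 2.06-fold lower, was called without the block (0.0429 in the probe set fit).

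Of 9 genes that set CDK phosphorylation, Wee1, whose kinase inhibits CDKs, was the only one called by its brightest probe set, 3.10-fold higher (limma, adjusted p = 0.04995). In the probe set fit a dimmer probe set of Ccnh (2.98-fold, adjusted p = 0.0138) and of Cdc25a (2.61-fold, 0.0465) were called higher, against 4.76% of all. The dimmer one of Wee1 was not (0.123). No gene on that list was called lower, and over all genes 4.62% were called higher and 1.51% lower. Before adjustment 4 had p under 0.05, all higher, where 14.7% of all genes were higher. The median log2 difference was 0.50. With the array number as a block 4 of the 9 were called higher, against 5.75% of all genes. These were Wee1 (limma, adjusted p = 0.0413), its relative Pkmyt1 (0.0436) and the CDK-activating phosphatase genes Cdc25a (0.0295) and Cdc25c (0.0434).

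Of the 7 CDK inhibitor genes none was called in either direction (limma), 1 higher and 1 lower having p under 0.05 before adjustment, with a median log2 difference of 0.46. Over all genes 4.62% were called higher and 1.51% lower, and before adjustment 14.7% were higher and 7.35% lower. With the array number as a block 1 of the 7 was called lower, against 1.95% of all genes. This was Cdkn2d, an INK4 family gene, 1.81-fold lower (limma, adjusted p = 0.0452, and 0.356 without the block). Cdkn1a, the p21 gene, read 21.2, 13.3 and 28.9 on the negative arrays, under the array medians, and 22.2, 76.4 and 33.4 on the positive ones (adjusted p = 0.363). Its log2 difference of 0.93 was 0.44 without positive array 2, and its other probe set gave -0.04. Cdkn2a had a log2 difference of 0.92 (adjusted p = 0.165). Cdkn1b, the p27 gene, named here after its values were seen, read 9146, 9757 and 8871 on the negative and 6656, 3829 and 5356 on the positive arrays, with no overlap. It was 1.80-fold lower and not called (limma, adjusted p = 0.0804), while its other probe set, 1.77-fold lower, was called (0.0271 in the probe set fit). Of 4 measured genes of the mitotic cyclins and Cdk1, none was called in either direction (limma), against 4.62% higher and 1.51% lower of all genes. Before adjustment 2 had p under 0.05, both higher, where 14.7% of all genes were higher and 7.35% lower. Ccnb3 and Ccna1, also on this list, lay under the array median on every array. Ccnb2, a mitotic cyclin gene, had a log2 difference of 2.01 (adjusted p = 0.0891, and 0.0295 under the block), and Cdk1, the mitotic kinase gene, 2.19 (adjusted p = 0.16). Both were highest among negative arrays on array 1, at 1039 and 3360.5, as Ccne2 and Ccna2 were.

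Of 23 other cyclin and CDK genes, most of them with roles in transcription, none was called in either direction (limma, brightest probe sets). Over all genes 4.62% were called higher and 1.51% lower. Before adjustment 2 were higher and 6 lower with p under 0.05 (14.7% and 7.35% of all genes), with a median log2 difference of -0.13. The largest differences were those of Ccnl1, a cyclin gene tied to splicing, at -1.18 (adjusted p = 0.0727), and Ccnt2, whose product pairs with CDK9, at -0.83 (adjusted p = 0.134). Dimmer probe sets were called lower in the probe set fit, where 2.16% of all were, and are named after their values were seen. They were of Ccng2 (limma, adjusted p = 0.0266), Cdk12 (0.0138 and 0.0291) and Ccnc (0.0492). The brightest of Ccnc was 1.33-fold higher. On the E2F target list the smallest adjusted p values were those of Ticrr, Mcm6, Cdt1 and Mcm5. Ticrr, which helps fire replication origins, read 27.4, 31.4 and 24.9 on the negative arrays, under the array medians, and 119, 176 and 136 on the positive ones. Its other 2 probe sets, at 1.20-fold and 1.26-fold higher, were not called (limma, adjusted p = 0.622 and 0.567). The helicase genes Mcm6 and Mcm5 rose 5.89-fold and 5.28-fold, and Cdt1, which loads that helicase, 3.83-fold (limma, adjusted p = 0.0162, 0.0222 and 0.0166).

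**Figure D4:**
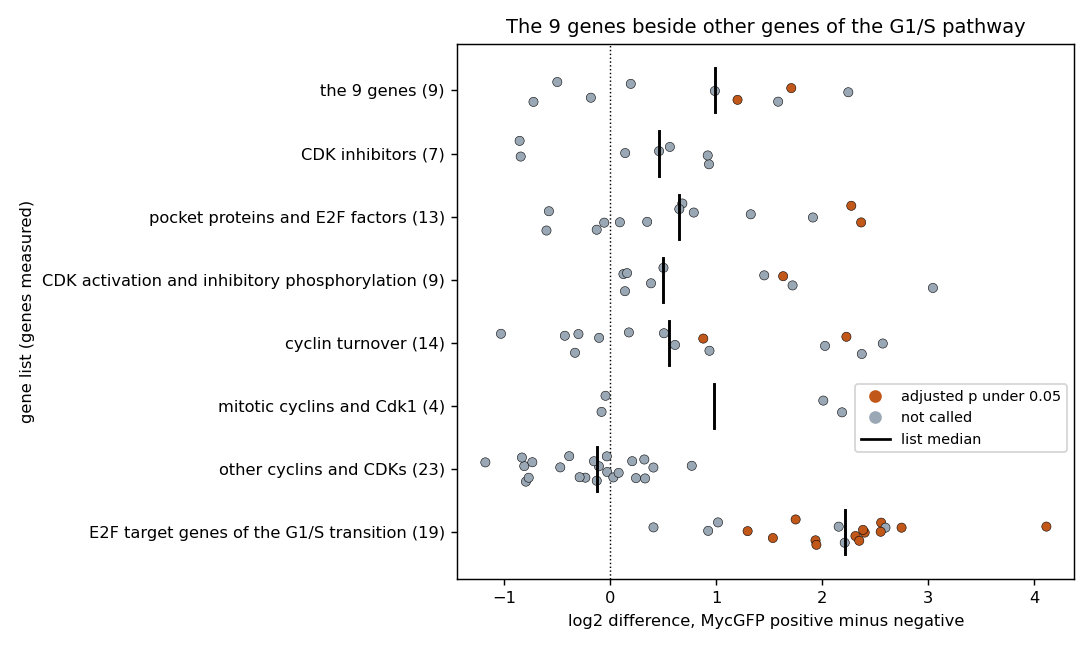
Log2 difference, MycGFP positive minus negative, of each measured gene of the 9 and of 7 lists of related genes (number measured in brackets; vertical shifts within a row carry no value); orange marks an adjusted p under 0.05 over all genes and bars the list median. The E2F targets lie to the right, at a median of 2.21, and the other cyclins and CDKs around -0.13.

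The genes whose pattern over the 6 arrays was most like that of each member were found by the root mean square difference of log2 values after subtracting each gene's own mean. This is a description over 6 arrays and 18193 genes. Cacybp and Mcph1 lay nearest to Cdk4, at 0.06 and 0.05 log2 units, and Rfc4 and Prr11 nearest to Ccna2, at 0.09 and 0.11. Foxred2 and Thumpd3 were nearest to Ccne1 (0.13 and 0.17), Pomt2 and Aimp2 to Ccne2 (0.17 and 0.21), and Ksr1 and Tnfaip8l1 to Cdk2 (0.06 and 0.14). Ssr4 and Cltb were nearest to Cdk6 (0.12 for both), Dffa and Stxbp3 to Ccnd3 (0.09 and 0.10), and Krt78 and Prrc1 to Ccnd1 (0.10 and 0.12). Ccnd2 lay farthest from its nearest genes, Tnfrsf9 and Gcnt1, at 0.39 and 0.40. This distance is not scaled to a gene's own spread, and Ccnd2 varied 11.2-fold among the positive arrays.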

How the data were processed

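RNA of 6 sorted samples, 5 ng each, was amplified with the Ovation system and biotin-labelled, per the labels' protocols. The deposited values are intensities per probe set, summarised with RMA (version not given in the sources used here), per the submitters' processing notes. All were above 0 (lowest 2.89 among named probe sets) and linear, so log2 was taken first. No detection calls were used, and scaling between arrays hides a change in total RNA per cell. Amplification from so little RNA adds noise to dim genes, and with so few arrays precision is limited.

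Of 45101 probe sets, 64 controls were left out, 34945 had 1 symbol, 932 several and 9160 none. Symbols followed the platform annotation, updated by Entrez identifier through RefSeq (GRCm38.p6, 34741 matched). Promoter windows were matched for 5 of the 9 genes. Each gene was represented by its probe set with the highest mean over the arrays. A second fit took all named probe sets.

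The groups were tested in R 4.3.3 with limma 3.58.1 (lmFit, eBayes, no covariate, two-sided, Benjamini-Hochberg at 0.05), tested on simulated data. Arrays of the same number correlated in their deviations from the group means (r = 0.38, 0.21 and 0.39 across genes). A fit with the number as a block was therefore run as well, on an assumed pairing that no label states. The main fit took no pairing. A p-value here covers only the spread among these samples, which may be technical. Named were the 9 genes, Myc, for each list up to 4 called genes ranked by adjusted p (without any, the 2 of largest difference), and the 2 most alike genes per member. The members and lists were chosen with earlier results of these data known. Other settings were the number as a block, single arrays left out, the mean of all probe sets, median centring, no cross-hybridising probe sets, no dim genes, an offset of 16, a trended robust variance, array weights and, added after seeing the data, no arrays numbered 1.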

Additional observations from a re-analysis of the deposited data

How the results depend on the processing

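With 1 array left out in turn, 0 to 862 genes were called higher and 0 to 238 lower, 0 to 3 of the 9 genes were called higher, and so were 0 to 18 of the 19 E2F targets. The lowest counts came without positive array 2. Without both arrays numbered 1, 310 genes were called higher, 42 lower and 1 of the 9 higher. Median centring shifted the all-gene median from 0.013 to -0.14 (log2) and gave 502 higher genes, 381 lower genes and 1 of the 9. An offset of 16 and the trended robust variance each also left 1 of the 9, Cdk4. With the array number as a replicate block, 1047 genes were called higher, and among the 9 only the call of Ccna2 changed. No alternative run called any of the 9 lower.

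Under the array left out, the sign turned for Ccnd2 (log2 difference -1.24 to 0.50) and Cdk6 (-0.21 to 0.64), and for these probe sets: Ccnd1, -0.40 to 0.06127 and -0.45 to 0.12; Ccnd2, -0.06926 to 0.30, -1.27 to 0.009085, -1.24 to 0.50 and -0.55 to 0.09105; Ccnd3, -0.29 to 0.76; Cdk6, -0.21 to 0.64 and -0.02846 to 0.84. The cause was not tested. The signs of the other members held in all alternatives run. Of the other genes named, E2f6, Skp2 and Ticrr lost their calls without positive array 2 and in no other alternative. Without 1 array, Myc, E2f1, Mcm5 and Mcm6 lost theirs in 4 of 6 cases, Cdt1 in 3, Wee1 in 5 and Cul1 in 6, with adjusted p up to 0.156. Dim signal limits what can be said of Ccnd2 and of the other Cdk2 probe set.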
